A study of Mus musculus with 19 samples.

Results

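The collagen, laminin and integrin genes were taken by symbol from the GENCODE annotation of the NCBIM37 (mm9) mouse assembly, and 87 of its 22380 protein-coding genes matched. Of these, 44 matched as collagen genes, 11 as laminin genes and 32 as integrin genes, and 81 encode a collagen, laminin or integrin chain. The other 6 carry a chain's name without being one: Col4a3bp (a ceramide transfer protein), Itgb1bp1, Itgb1bp2, Itgb1bp3 and Itgb3bp (named as partners of integrin beta chains) and Itgbl1 (integrin beta-like). A gene was counted as bound when a peak overlapped its body or the 10 kb on either side, and as bound at the promoter when a peak overlapped the stretch from 2000 bp before to 1000 bp after any of its annotated transcription starts. Distances to a gene's start are to the nearest annotated one, which can be internal: the strongest promoter peak at 7 days lay 2935 to 91818 bp from the outermost start of Col15a1, Col18a1, Col27a1, Itga2b, Itga6, Itgb5 and Lamc3.

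Collagens are trimeric proteins that form the fibrils and networks of the extracellular matrix, and laminins are heterotrimers of an alpha, a beta and a gamma chain that organise basement membranes. Integrins pair an alpha with a beta chain at the cell surface and tie matrix ligands such as collagen, laminin and fibronectin to the cytoskeleton through focal adhesions. YAP, the coactivator restrained by the Hippo pathway, has no DNA-binding domain of its own and reaches chromatin through TEAD factors, and matrix stiffness sensed through integrins is a known input to its activity. In liver, stellate cells and not hepatocytes are the main source of fibrillar collagen.

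Chromatin of C57BL/6 mouse livers was immunoprecipitated with an antibody against YAP or against TEAD and sequenced. All animals carried the ROSA26-rtTA-IRES-EGFP allele and ate doxycycline food. The 6 groups were livers labelled WT that had received the food for 7 days, livers labelled tetYAP after 3 days, and livers labelled tetYAP after 7 days, each with both antibodies. Each group held 3 samples, except the TEAD samples at 7 days, which were 4. According to the study's methods, the induced protein was an activated YAP mutant in a transgenic line named after Col1a1, itself one of the genes described here, and an albumin-driven Cre directed induction to hepatocytes. The TEAD antibody was raised against TEAD4 and is described there as recognising TEAD1 and TEAD3 too. Chromatin came from whole liver, so a peak cannot be assigned to a cell type.

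The samples of a group were merged before peaks were called, so each group is a single peak list with no spread between replicates. No test between groups was possible, and counts are set beside the share of all protein-coding genes that were bound in the same list. The merged libraries held 34260362 to 55032002 tags and shared a control of 167176362 tags. The TEAD lists held 5695 peaks in WT, 36446 at 3 days and 38984 at 7 days, and the YAP lists 156, 110 and 1478. Fragments were extended to 400 bp in the WT TEAD list and to 207 and 206 bp in the tetYAP TEAD lists, so fold enrichment, the ratio of a peak's pileup to its local background, was not computed on like terms. Marker genes of liver cell types were counted too. At 7 days TEAD was listed at the promoters of 8 of 8 hepatocyte marker genes (Alb, Ttr, Apoa1, Apob, Serpina1a, Cps1, Hnf4a and Tat). It was listed at those of 2 of 5 cholangiocyte, 1 of 6 sinusoidal endothelial, 0 of 5 Kupffer cell or leukocyte and 0 of 8 stellate cell markers, against 37.6% of all genes. Such counts do not show which cells supplied the chromatin.

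A selection of sites is shown first, chosen to include YAP sites of all 3 families and strong TEAD sites without YAP. Each run is 201 bases of mm9, plus strand, centred on the summit of a TEAD peak at 7 days and free of annotated exons. Capitals mark the TEAD motif (GGAATG, or CATTCC on the other strand) and the AP-1 motif (TGACTCA or TGAGTCA). The first 5 sites also carried a YAP peak at 7 days and held the TEAD motif, the Lamc1 site carried YAP without it, and the last 2 were among the strongest TEAD sites and carried no YAP peak.
Itga1 intron, beside the start of Pelo, chr13:115880848-115881048: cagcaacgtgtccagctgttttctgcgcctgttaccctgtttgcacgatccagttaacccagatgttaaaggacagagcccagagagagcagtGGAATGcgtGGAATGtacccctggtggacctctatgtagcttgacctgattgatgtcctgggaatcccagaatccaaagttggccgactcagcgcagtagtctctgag
Itgb6 intron, chr2:60536207-60536407: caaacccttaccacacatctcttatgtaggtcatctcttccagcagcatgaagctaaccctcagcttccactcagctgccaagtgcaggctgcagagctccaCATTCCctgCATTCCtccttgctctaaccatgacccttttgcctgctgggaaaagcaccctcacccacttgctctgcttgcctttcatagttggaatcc
Itgb5 promoter, chr16:33892875-33893075: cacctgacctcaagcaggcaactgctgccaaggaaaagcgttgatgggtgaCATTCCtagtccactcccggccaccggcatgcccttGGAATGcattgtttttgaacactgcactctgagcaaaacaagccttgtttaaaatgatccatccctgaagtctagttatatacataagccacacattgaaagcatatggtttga
Col18a1 intron, chr10:76605215-76605415: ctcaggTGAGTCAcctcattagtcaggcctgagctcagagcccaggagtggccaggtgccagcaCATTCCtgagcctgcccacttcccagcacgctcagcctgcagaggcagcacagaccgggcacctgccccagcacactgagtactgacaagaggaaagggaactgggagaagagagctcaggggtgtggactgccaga
Lama5 intron, chr2:179954948-179955148: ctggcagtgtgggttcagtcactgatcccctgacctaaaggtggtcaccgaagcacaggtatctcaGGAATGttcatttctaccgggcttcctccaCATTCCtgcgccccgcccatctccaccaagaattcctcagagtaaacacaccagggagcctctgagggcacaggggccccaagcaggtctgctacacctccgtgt
Lamc1 intron, chr1:155073247-155073447: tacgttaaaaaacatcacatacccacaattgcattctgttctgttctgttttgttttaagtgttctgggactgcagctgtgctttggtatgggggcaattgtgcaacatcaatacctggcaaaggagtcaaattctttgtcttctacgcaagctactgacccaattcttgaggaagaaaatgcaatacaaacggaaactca
Itgb6 intron, nearer the start, chr2:60541405-60541605: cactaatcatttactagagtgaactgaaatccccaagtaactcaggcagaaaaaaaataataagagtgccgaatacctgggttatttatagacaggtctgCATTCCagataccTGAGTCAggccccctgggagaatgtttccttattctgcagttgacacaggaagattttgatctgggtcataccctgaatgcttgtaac
Col12a1 intron, chr9:79521385-79521585: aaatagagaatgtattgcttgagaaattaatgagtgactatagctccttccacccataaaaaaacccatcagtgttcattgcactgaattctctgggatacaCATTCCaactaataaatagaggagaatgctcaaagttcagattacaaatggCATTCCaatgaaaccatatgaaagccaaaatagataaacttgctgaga

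At the Itga1 and Itgb6 sites with YAP, the TEAD motif stood in direct repeat with 3 bases between the copies. Pairs in this arrangement were found at 93 of 38953 placed TEAD peaks at 7 days (0.239%) and at 30 of 1456 placed YAP peaks (2.06%). Among gaps of 0 to 20 bases, the next most frequent gap was found at 24 TEAD peaks and at 6 YAP peaks. This arrangement was looked for after the Itga1 and Itgb6 sequences had been seen.

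TEAD lists covered most collagen, laminin and integrin genes after YAP induction, at counts somewhat under those of genes of their length, while the counts of bound promoters lay well under them. In WT livers 25 of the 87 genes had a TEAD peak (28.7%, against 20.2% of all genes), at 3 days 54 (62.1%, against 58.8%) and at 7 days 57 (65.5%, against 59.6%). These genes are long, with a median of 77.7 kb against 15.4 kb for all genes, and 52 of them fell in the longest 2 of 10 length classes. Had they been bound at the rate of their length classes, 25.6 genes would have been bound in WT, 61.9 at 3 days and 63.5 at 7 days. The larger number of bound genes after induction went with a longer list. When each TEAD list was reduced to its 5695 strongest peaks, 25, 24 and 23 of the genes were bound (28.7%, 27.6% and 26.4%, against 20.2%, 19.7% and 18.1% of all genes).

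At promoters the counts lay below both backgrounds after induction. TEAD was found at 9 promoters in WT (10.3%, against 8.73% of all genes), at 17 at 3 days (19.5%, against 38.8%) and at 25 at 7 days (28.7%, against 37.6%). Genes of the same length would have given 9.73, 39.3 and 38.3. With each list reduced to its 5695 strongest peaks, the promoters bound were 9, 7 and 4 (10.3%, 8.05% and 4.6%, against 8.73%, 7.72% and 5.95% of all genes). The gap at 3 days was thus not present among the strongest peaks, and that at 7 days was small and rested on 4 bound promoters. A promoter peak at 7 days with none in WT was found for 16 of the 87 genes (18.4%), against 28.9% of all genes. Among the 52 longest genes 14 promoters were bound at 7 days (26.9%, against 43.8% of all genes of those classes), and among the 35 shorter ones 11 (31.4%, against 36%).

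**Figure D1:**
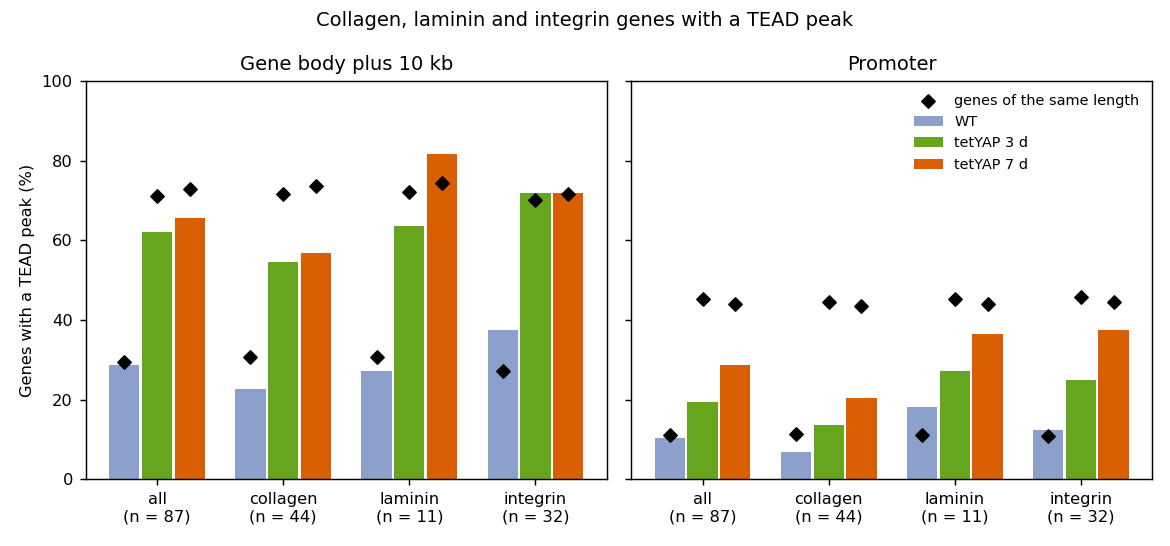
Percentage of collagen, laminin and integrin genes with a TEAD peak in the gene body plus 10 kb (left) or at the promoter (right) in each of the 3 TEAD lists, by family, with the number of genes under each group. Bars are the observed share and diamonds the share of all protein-coding genes in the same length classes. Promoter bars at 3 d and 7 d lie below their diamonds in every family, with collagens lowest at 13.6% and 20.5%.

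The collagens lay furthest under the length background. Of 44 collagen genes, 10, 24 and 25 were bound in WT, at 3 days and at 7 days, where length would give 13.5, 31.5 and 32.4, and 3, 6 and 9 promoters were bound, where it would give 4.98, 19.6 and 19.2. Laminin genes were bound in 3, 7 and 9 of 11 cases (3.37, 7.94 and 8.18 by length) and at 2, 3 and 4 promoters (1.24, 4.97 and 4.85). Integrin genes were bound in 12, 23 and 23 of 32 cases (8.72, 22.4 and 22.9) and at 4, 8 and 12 promoters (3.51, 14.7 and 14.3). TEAD peaks at 7 days numbered 1.45 per 100 kb of collagen loci, 1.91 of laminin loci and 2.61 of integrin loci, against 2.37 for the loci of all genes. Unlike the counts, these densities were not set beside genes of the same length.

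Fibrillar collagens, the chains of the banded fibrils of scar and connective tissue, were mostly unbound. Only 2, 4 and 4 of the 11 had a TEAD peak in the 3 lists, where length would give 3.22, 7.87 and 8.04. Col1a2, Col3a1, Col5a1, Col5a2, Col2a1 and Col11a1 had no peak in any of the 6 lists. Col27a1 was the fibrillar gene with most TEAD peaks, 2 in WT, 7 at 3 days and 11 at 7 days, and its promoter site 1481 bp from a start had a fold enrichment of 6.53, 23.4 and 29.52. That promoter was listed in every TEAD list and was the strongest collagen promoter at 7 days. Col5a3 had 1, 3 and 2 peaks, with a highest fold enrichment of 16.02 at 7 days.

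Col1a1, which encodes the main chain of type I collagen, had no TEAD peak in WT or at 3 days and 3 peaks at 7 days. A peak 8023 bp before its outermost start had a fold enrichment of 5.89, the promoter peak 588 bp from an internal start and 874 bp from the outermost one had 4.95, and a peak whose summit lay 2244 bp past the annotated end of the gene had 9.19. These peaks ranked 14588 to 34845 of 38984. The transgenic line is named after this gene, and the part of the transgene in these peaks was not tested. Marker genes of stellate cells (Des, Pdgfrb, Lrat, Reln, Ngfr, Rgs5, Dcn and Lum) were bound in 0, 3 and 0 of 8 cases in the 3 TEAD lists, where length would give 1.87, 5.4 and 5.44, and at no promoter.

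Basement membrane collagens, the type IV chains that form the sheet-like network under epithelia and endothelia, were bound in 3, 5 and 5 of 6 cases, near the 2.24, 4.38 and 4.57 that length would give. Col4a1 and Col4a2 share a divergent locus. Col4a1 had 5, 5 and 4 TEAD peaks and Col4a2 had 1, 4 and 3. The strongest at 7 days lay in the downstream flank of Col4a2, at a fold enrichment of 17.44. Col4a5 and Col4a6, a second divergent pair on the X chromosome, shared a promoter peak 95 bp from a Col4a5 start with a fold enrichment of 4.92 at 3 days and 5.89 at 7 days. Col4a4 had no peak, while its neighbour Col4a3 had 1 in each TEAD list. The Col4a3 site lay in the downstream flank, 10 bp from a start of Mff in WT and 217 bp at 3 days.

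Among the other collagens, binding was concentrated in a few genes. Col18a1, the basement membrane collagen from which endostatin is cut, had 2 TEAD peaks in WT, 11 at 3 days and 16 at 7 days, the most of any of the 87 genes. Its strongest site at 7 days, 8577 bp from a start, reached a fold enrichment of 52.78, which placed it at rank 153 among the 38984 peaks. Its multiplexin partner Col15a1 had 0, 5 and 3 peaks and a promoter peak of 4.31 at 3 days and 7.07 at 7 days. The FACIT collagens, which sit on the surface of fibrils, had no promoter peak in any TEAD list (0 of 9, where length would give 4 at 7 days), yet 6 of 9 were bound elsewhere at 3 and at 7 days. Col12a1 was the strongest of them, with 0, 5 and 7 peaks and an intronic site of fold enrichment 43.36 at 7 days. Col9a3 was bound only at a site in its upstream flank, 20 bp from a start of Ogfr in WT and 38 bp at 3 days. Beaded filament collagens, the type VI chains, were bound in 0, 1 and 2 of 6 cases, where length would give 1.74, 4.3 and 4.41, with Col6a1, Col6a2, Col6a3 and Col6a4 free of peaks in all 6 lists.

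The promoters of the 5 laminin alpha chains had no TEAD peak in any list, where length would give 0.577, 2.12 and 2.09, and no test between chains was made. Lamb2, a beta chain, had a promoter peak in all 3 TEAD lists with a fold enrichment of 5.32, 11.49 and 19.32, and Lamc3, a gamma chain, had one of 5.18, 18.85 and 22.86 within 30 bp of an internal start, 37783 bp from the outermost one at 7 days. Lamc1, the gamma chain of most laminins, had no peak in WT, 7 at 3 days and 9 at 7 days. Lama5 had no peak in WT or at 3 days and 5 at 7 days, the strongest being the intronic site printed above at a fold enrichment of 18.38. Lama1 and Lama4 had no peak in any list, although they span 125 and 145 kb.

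Among integrin alpha chains, all 4 collagen-binding ones (Itga1, Itga2, Itga10 and Itga11) and all 3 laminin-binding ones (Itga3, Itga6 and Itga7) had a TEAD peak at 7 days, where length would give 2.95 and 2.17. The 4 chains that pair into RGD receptors (Itga5, Itga8, Itgav and Itga2b) were unbound in WT and all bound at 7 days, where length would give 1.08 and 2.86. Itga2b had a promoter peak of fold enrichment 12.15 at 3 days and 15.67 at 7 days, and Itga5 had one of 8.48 at 7 days, 44 bp from its start. Of the 5 leukocyte alpha chains, Itgad and Itgax had no peak, and none had a promoter peak. Itgae, the alpha chain of mucosal lymphocytes, was the exception in strength: an upstream site 5436 bp from its start had a fold enrichment of 10.87 in WT, 25.65 at 3 days and 33.6 at 7 days.

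Of the 9 integrin beta chains, 4, 6 and 5 were bound, where length would give 2.42, 6.4 and 6.52, and Itgb7, Itgb8 and Itgb2l had no peak in any list. Itgb1, the beta chain that pairs with most alpha chains, had a promoter peak in all 3 TEAD lists within 59 bp of a start, with a fold enrichment of 6.65, 15.59 and 15.08. Itgb5, a vitronectin receptor chain, had 3, 17 and 13 TEAD peaks. Its promoter site ranked 1027 of 5695 in WT, 971 of 36446 at 3 days and 532 of 38984 at 7 days, with a fold enrichment of 6.26, 18.9 and 36.06. Itgb6, an epithelial chain known for activating latent TGF-beta, had 2, 2 and 6 peaks. Itgb4 had 1, 4 and 4, but its strongest one lay 55 bp from the start of Galk1.

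**Figure D2:**
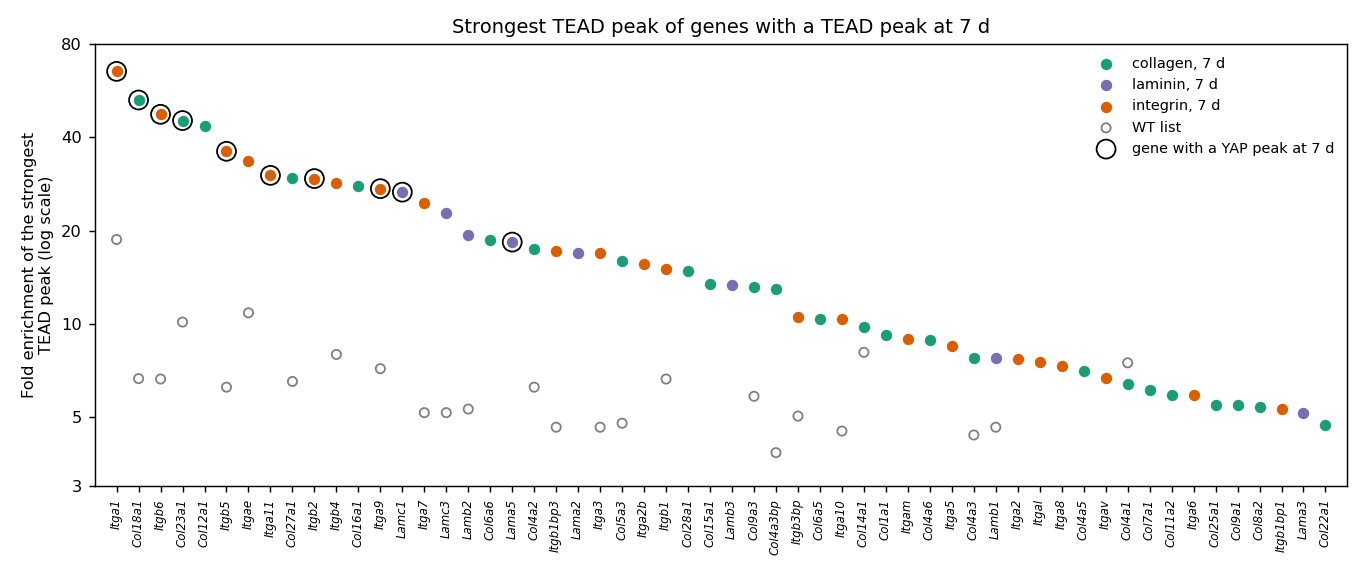
Fold enrichment (log scale) of the strongest TEAD peak at 7 d for genes with one, coloured by family and ordered by that value. Open grey circles give the strongest peak of the gene in the WT list, which can be another site, and black rings mark the 10 genes with a YAP peak at 7 d. The values run from 65.27 at Itga1 to 4.71 at Col22a1.

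YAP itself was listed at none of the 87 genes in WT (0.116% of all genes), at 1 at 3 days (0.161%) and at 10 at 7 days (11.5%, against 4.79% of all genes and 7.83 genes by length). By family these were 6 integrins where length would give 2.45, 2 laminins where it would give 1.07 and 2 collagens where it would give 4.3. The integrin sites of Itga1, Itga9, Itga11 and Itgb2 lay nearer the start of another gene than any of their own. Promoters were bound by YAP at 0 genes in WT (0.0357% of all genes), 0 at 3 days (0.0715%) and 1 at 7 days (1.15%, against 1.04%). All 10 sites overlapped a TEAD peak at 7 days, against 95.2% of all YAP peaks, and 4 overlapped a TEAD peak in WT (40%, against 54.8%).

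The strongest YAP site lay in Itga1, whose product is the alpha-1 collagen receptor, at chr13:115880702-115881156. It had a YAP fold enrichment of 5.99 at 3 days (rank 37 of 110) and 11.35 at 7 days (rank 52 of 1478), and no YAP peak in WT. TEAD fold enrichment there was 18.74 in WT, 54.34 at 3 days and 65.27 at 7 days, at ranks 48, 4 and 31. The summit lay 545 bp from the start of Pelo, a translation rescue factor gene nested in an Itga1 intron, and 11198 bp from the nearest start of Itga1. Which of these genes the site serves was not tested. The promoter of Itga1 itself had a TEAD peak within 14 bp of a start in all 3 lists, with a fold enrichment of 4.12, 10.18 and 11.78, and no YAP peak.

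At Itgb6, YAP was listed at 7 days in an intron 7310 bp from the nearest start (chr2:60536160-60536585, fold enrichment 7.31, rank 303). TEAD fold enrichment there was 6 in WT, 10.55 at 3 days and 47.46 at 7 days. At Itgb5 the YAP peak had a fold enrichment of 3.97, rank 1429 of 1478, and lay at the promoter site described above, 909 bp from an alternative start. It was the only YAP promoter peak of the 87 genes and fell near the end of the list. Itga11, a collagen receptor chain, had an intronic YAP peak of fold enrichment 6.77 at a site where TEAD had no peak in WT, 9.19 at 3 days and 30.16 at 7 days. The YAP summit there lay 102527 bp from the nearest Itga11 start and 31261 bp from a start of Fem1b.

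The laminin sites with YAP were in introns of Lamc1 (YAP 5.68) and Lama5 (4.8), and neither had a TEAD peak in WT. TEAD fold enrichment at Lamc1 was 11.33 at 3 days and 26.63 at 7 days, while at Lama5 TEAD was called only at 7 days. The collagen sites with YAP were in introns of Col18a1 (5.24) and Col23a1 (4.88), again without TEAD in WT and with TEAD of 14.77 and 15.92 at 3 days. The remaining peaks lay in downstream flanks and nearer other genes: that at Itgb2 (6) was 11239 bp from a Pttg1ip start and that at Itga9 (5.34) was 17987 bp from a Ctdspl start. When a peak was given only to the gene with the nearest start, 6 of the 87 genes kept a YAP peak at 7 days and 0 at 3 days. The genes that lost theirs at 7 days were Itga1, Itga9, Itga11 and Itgb2, all integrins.

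**Figure D3:**
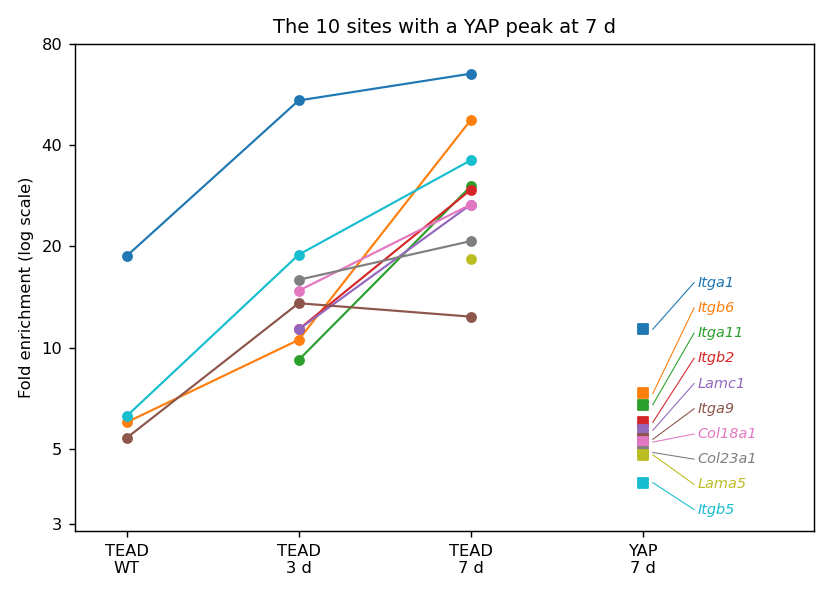
Fold enrichment (log scale) at the 10 sites with a YAP peak at 7 d. Circles joined by lines are TEAD in WT, 3 d and 7 d where a peak was called, and squares are YAP at 7 d. At 8 of the 9 sites with TEAD peaks at both 3 d and 7 d the 7 d value is the higher, and Itga9 is the other site.

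TEAD was strong where YAP was listed. The 10 TEAD peaks at 7 days that overlapped a YAP peak had a fold enrichment of 12.37 to 65.27 with a median of 28, and the other 194 ran from 3.64 to 52.78 with a median of 7.5. Some strong TEAD sites carried no YAP peak: Col18a1 (52.78), Col23a1 (45.31, at a site 10150 bp past its nearest start and beside Agxt2l2), Col12a1 (43.36) and Itgae (33.6) each held one of the strongest TEAD peaks without YAP.

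Merged across the 3 TEAD lists, the windows of the 87 genes held 237 sites. Of these, 42 were called in all 3 lists, 96 at 3 and 7 days but not in WT, 63 at 7 days only, 32 at 3 days only, 2 in WT only, and 2 in WT and at 3 days. This split of sites was not made for all genes. Sites called in all lists had a median fold enrichment of 5.44, 10.3 and 12.4. At the 138 sites called at both 3 and 7 days, the 7-day value was higher at 108 (78.3%, against 84.9% of such peaks genome-wide) with a median ratio of 1.3 (1.35 genome-wide). A WT TEAD peak lay under 21.6% of the 7-day peaks at these genes, against 14.1% of all 7-day peaks. A 3-day TEAD peak lay under 69.6% of the 7-day peaks at these genes, against 71.2% of all. In the other direction, a 7-day peak lay under 80.8% of the 3-day peaks, against 75.9% of all.

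By gene, 25 of the 87 were bound by TEAD in all 3 lists (28.7%, against 19.9% of all genes) and 26 at 3 and 7 days but not in WT (29.9%, against 34.9%). The shares of all genes in this paragraph make no allowance for length. Those 25 were all the genes bound in WT, where length would give 25.6. A further 6 were bound at 7 days only (6.9%, against 4.69%), among them Col1a1, Col6a5, Col8a2, Itga8 and Lama5, and 3 at 3 days only (3.45%, against 3.86%), which were Col13a1, Col24a1 and Itgb3. No gene bound in WT was unbound at 7 days, which was rare among all genes too (0.0134% bound in WT only and 0.0983% in WT and at 3 days). The 9 promoters bound in all 3 lists (10.3%, against 8.59% of all genes) were those of Col18a1, Col27a1, Itga1, Itgb1, Itgb5, Lamb2, Lamc3 and the non-chain genes Col4a3bp and Itgb3bp. For Col4a3bp, Itgb3bp, Itgb1bp1 and Col4a6 the strongest promoter peak at 7 days lay nearer the start of a neighbouring gene (Polk, Pgm2, Cpsf3 and Col4a5).

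The 27 genes without a TEAD peak (31%, against 36.4% of all genes, with no allowance for length) had no YAP peak either. They were 17 collagens, 2 laminins and 8 integrins, and 10 of them exceed 100 kb. Besides those named above they are Col10a1, Col17a1, Col19a1, Col20a1, Col8a1, Col9a2, Itga4, Itgb1bp2 and Itgbl1. Col19a1 (326 kb) and Itgbl1 (316 kb) were the longest. In the length class of Col11a1 (190 kb), likewise without a peak, 76.2% of all genes had a TEAD peak at 7 days.

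Most TEAD binding at these genes was intronic. Of 205 pairs of a gene and a TEAD peak at 7 days, 35 had a peak that overlapped a promoter of the gene. Of the others, 121 had the summit in an intron, 32 in the downstream flank and 10 in the upstream flank. A further 4 had it in a coding exon and 3 in a non-coding exon part. A promoter of any protein-coding gene lay under 27% of the 204 peaks, against 35.3% of all peaks in gene windows, and under 25.4% against 38.3% at 3 days. For 74.5% of the 7-day peaks the nearest start belonged to one of the 87 genes. Neither this share nor that of intronic peaks was counted for all genes.

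The TEAD motif lay within 100 bp of the summit of 83 of 204 peaks at 7 days (40.7%, against 35.2% of all placed peaks), of 67 of 177 at 3 days (37.9%, against 30.4%) and of 24 of 46 in WT (52.2%, against 48.6%). Among peaks in the strongest 10% of the 7-day list, 19 of 24 held it (79.2%, against 61.4%). Of the 10 YAP peaks 7 held it (70%, against 59%). The AP-1 motif was less frequent but stood further from its background in the full 7-day list, where 26 of 204 TEAD peaks held it (12.7%, against 6.04%). At 3 days 17 of 177 held the AP-1 motif (9.6%, against 4.67%), and in WT 2 of 46 (4.35%, against 4.77%). Among peaks in the strongest 10% of each list, 5 of 24 held the AP-1 motif at 7 days (20.8%, against 7.26%). At 3 days 0 of 18 did (against 4.93%), and in WT 0 of 3 (against 3.08%).

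Away from promoters, the AP-1 motif was in 20 of 149 TEAD peaks of these genes at 7 days (13.4%, against 6.84% of all such peaks), and at promoters in 6 of 55 (10.9%, against 3.9%). The share was alike in the families: 11 of 88 peaks at collagen genes, 5 of 34 at laminin genes and 10 of 82 at integrin genes. Of the 26 peaks with it, 25 had no TEAD peak in WT (96.2%), against 87.9% of all 7-day TEAD peaks with the motif and 78.4% of all 204 peaks of these genes. The other was a weak one in Itga9. They included the second Itgb6 intron site printed above (fold enrichment 34.87), the YAP site of Itgb2 (29.45) and a flank of Col16a1 (27.81). These peaks were counted after the shares were seen, and no test was made of the difference.

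**Figure D4:**
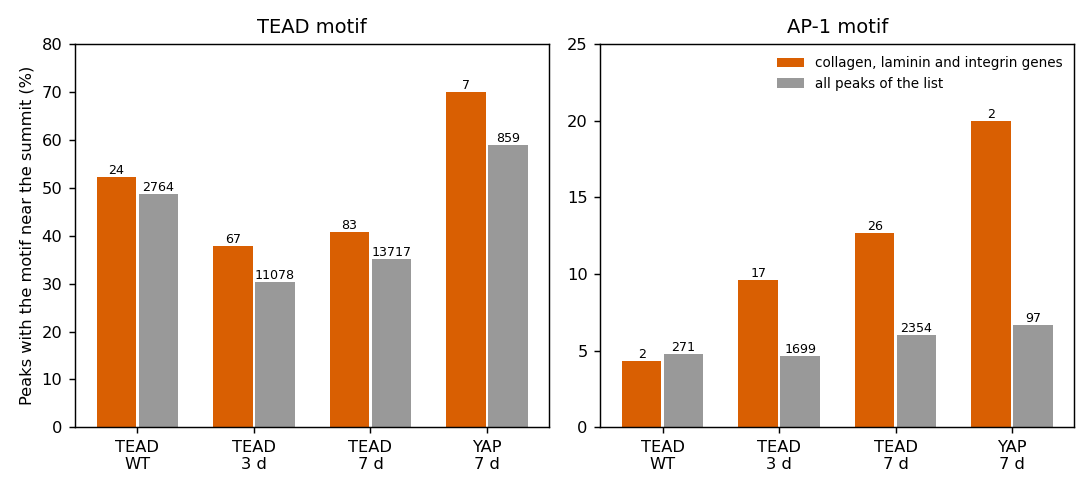
Percentage of peaks with a TEAD motif (left) or an AP-1 motif (right) within 100 bp of the summit, for peaks in the windows of the 87 genes and for all placed peaks of the same list. Numbers over bars are peaks with the motif. The AP-1 share at these genes is 12.7% in the TEAD 7 d list against 6.04% of all peaks, while the WT and YAP shares rest on 2 peaks each.

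Of 74 genes of the same pathway outside the chains, 36, 57 and 62 were bound by TEAD in WT, at 3 days and at 7 days, where length would give 19.1, 51.4 and 52.4, and 16 by YAP at 7 days, where it would give 5.13. Focal adhesion genes (talins, vinculin, kindlins, filamins and others), whose products link integrins to actin, were bound in 14, 21 and 22 of 22 cases (6.1, 15.7 and 16 by length), and 8 had a YAP peak at 7 days (1.75 by length). Collagen processing genes were bound in 13, 17 and 20 of 23 cases (5.61, 15.8 and 16), and other basement membrane genes such as nidogens and perlecan in 2, 6 and 8 of 10 (2.96, 7.25 and 7.48). Other receptors of matrix were bound in 5, 7 and 7 of 9 cases (2.37, 6.33 and 6.44), and other matrix glycoproteins in 2, 6 and 5 of 10 (2.09, 6.42 and 6.48). At promoters, the 74 genes gave 16, 32 and 35 (7.95, 34.2 and 33.2 by length).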

How the data were processed

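Liver ChIP-seq libraries for YAP and TEAD were grouped by antibody, genotype and days of doxycycline food as the labels give them. The authors aligned 51-bp reads to mm9 with BWA 0.6.2, merged the samples of each group, removed duplicates and called peaks with MACS2 2.0.9 at a p-value cutoff of 1e-05 (per the labels, the study's methods and the file headers). Per the file headers, 1 control served all 6 lists. The pileup column deposited by the authors is a coverage signal at the summit. The fold enrichment deposited by the authors is a ratio of pileup to local background, and the deposited −log10 p-value and −log10 q-value come from the same caller. Positions are 1-based.

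From these lists, overlaps of at least 1 bp with gene windows and promoters were counted in Python 3.11.15 with pandas 2.3.3. Counts by length are sums, over the genes, of the share of all protein-coding genes with a peak in the same of 10 length classes. Peaks were ranked by −log10 p-value, and the strongest peak of a gene is the one with the highest value. Motifs were searched on both strands in 201 bp around each summit with pysam 0.24.0. The 10 to 31 peaks per list on sequences without a chromosome of the assembly were left out of motif counts. Overlap counting and length classes were tested on simulated data. Named genes were those with a YAP peak, with a TEAD promoter peak in WT, among the 10 strongest at 7 days or the 5 strongest in WT, among the 5 with most TEAD peaks at 7 days, without any peak, Col1a1 and the 6 non-chains, and others were named within their class after their values were seen. The genes, gene lists and motifs were chosen with earlier results of these data known. Of the listed symbols, Col26a1, Lamb1-1 and Adgre1 were not in the annotation. Lists of single samples were not analysed here, so intervals and replicate error are not given, and a peak's absence means only that it was not called at this depth. A few items are not reported here.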

Additional observations from a re-analysis of the deposited data

How the results depend on the processing

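Of 98 recounts under other settings, 86 stayed within 1.5 times the count reported and 12 did not. With TEAD lists of equal length (5695 peaks), bound genes were 24 at 3 days and 23 at 7 days and bound promoters 7 and 4. With starts of protein-coding transcripts only, or the outermost start only, WT TEAD promoters were 5 and 5, and the YAP promoter count at 7 days was 0 and 0. It was also 0 with a −log10 p of at least 10 and 0 with a fold enrichment of at least 5. With peaks given only to the nearest start, YAP-bound genes were 6 at 7 days and 0 at 3 days. The cause was not tested. The members' promoter share stayed below that of all genes in 8 of 8 alternatives at 7 days and in 7 of 8 at 3 days, the exception being lists of equal length (8.05% against 7.72%). At 7 days, lists of equal length gave 4.6% against 5.95%, from 4 bound promoters. No alternative put the share of genes with a TEAD peak in the wider window below that of all genes, a comparison that makes no allowance for gene length. In the main setting 25, 54 and 57 genes were bound in WT, at 3 days and at 7 days, where length would give 25.6, 61.9 and 63.5. Other windows and thresholds were not set beside genes of the same length. No paired analysis was possible because the samples of each group were merged before peaks were called, and leaving out a replicate was not run for the same reason. List length and depth limit what absence of a peak can show.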
